A study of Rattus norvegicus with 12 samples.

Results

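Complement and coagulation are the protein cascades of the blood plasma that the liver supplies, and their hepatic transcripts were compared here between alcohol-drinking and water-drinking rats. The members were 46 factors fixed by name, from C1qa to Vtn, and a factor was measured where a transcript of that name, in any letter case, had an RPKM above 0 in at least 1 liver. This held for 36 of the 46 factors, out of 15270 gene names above 0 in the whole table. Where a gene had several listed transcripts (58 for the 36 factors), the one with the highest mean was taken. C2, C3, C4a, C7, Cfi, Mbl2, F9, Fga, Pros1 and Vtn were not matched by name and are not analysed here.

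The livers came from 12 female rats of the inbred alcohol-preferring line iP10a. The 6 EtOH animals chose freely, over 23 weeks, among bottles holding 10%, 20% or 30% ethanol by volume, and the 6 controls were given water only. Food and tap water were freely available to both groups, tissue was collected at 38 weeks of age (39 weeks for EtOH animal 6), and each animal gave 1 library of poly(A) RNA. The unit is RPKM, the reads scaled to the length of the transcript and to the mapped reads of the library. Whole reads recovered from these values numbered 2610238 to 4318141 per control liver and 3945593 to 6030028 per EtOH liver, so the EtOH livers were read more deeply on the whole. The tissue label was checked with hepatocyte markers: Alb, the gene of serum albumin, took 10.6 to 17.5% of all RPKM in each liver, and Tf, transferrin, ranged from 14315 to 16455 RPKM, whereas Apoa1 and Ahsg were not matched by name.

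Complement marks microbes and debris for clearance. C1 bound to antibody, or lectins bound to sugars, set off proteases that split C4, C2 and C3, and C5 to C9 then assemble into a pore in the target membrane. In coagulation, active factor X arises through tissue factor with factor VII, or through a chain of factors that begins with the contact factors XII and XI. With factor V it turns prothrombin into thrombin, and thrombin turns fibrinogen into fibrin, which plasmin dissolves. Hepatocytes secrete most of these proteins, whereas C1q comes mainly from macrophages, and factor VIII and von Willebrand factor from endothelium.

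Of the 36 factors, 2 rose in EtOH livers and 0 fell at an adjusted p below 0.05. The 2 were F5, coagulation factor V, and F11, coagulation factor XI. The test was limma on quantile-normalized log2(RPKM + 0.5) over all 21718 transcripts above 0, of which 1.13% were called higher and 1.29% lower, and it left 16 factors higher and 0 lower at an unadjusted p below 0.05 (8.07% and 7.42% of all transcripts). Most factors are well expressed, and among the 11086 transcripts with a mean of at least 1 RPKM 2.12% were called higher. A fit restricted to those transcripts called 5 factors higher, adding C6, C1qb and Cpb2 (3.79% of its transcripts were called higher). The median log2 fold change of the factors was 0.15, against 0.0002 for all transcripts. This direction depended on the scaling between livers. On the RPKM as deposited, with no scaling between livers, 18 factors lay above 0 and 18 below, with a median of 0.02. Of them 0 were called (0.58% of all transcripts were called higher). On that scale the median was -0.02 for all transcripts and -0.08 for those with a mean of at least 1 RPKM. By level it was -0.15 from 10 to 100 RPKM, -0.12 from 100 to 1000 RPKM and -0.05 from 1000 RPKM upward. After quantile normalization 25 factors lay above 0 and 11 below, and after median scaling 28 and 8. Directions of single factors are therefore given on the deposited and the normalized scale.

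For F5, F11, the fibrinogen chain Fgb and the C1q chain C1qb, the sequence around the gene start is shown. F5 and F11 were taken because they were called, Fgb as the most abundant factor and C1qb as the C1q chain with the largest log2 fold change. Each run covers 250 bases before and 50 bases after the start in RefSeq annotation of GRCr8, 5′ to 3′ on the gene's strand. They lie at chr13:79046407-79046706 (plus strand) for F5, chr16:53720252-53720551 (plus strand) for F11, chr2:170700826-170701125 (minus strand) for Fgb and chr5:154407778-154408077 (minus strand) for C1qb. Capitals mark matches, on either strand, to the letters of elements known from liver or macrophage genes.
F5: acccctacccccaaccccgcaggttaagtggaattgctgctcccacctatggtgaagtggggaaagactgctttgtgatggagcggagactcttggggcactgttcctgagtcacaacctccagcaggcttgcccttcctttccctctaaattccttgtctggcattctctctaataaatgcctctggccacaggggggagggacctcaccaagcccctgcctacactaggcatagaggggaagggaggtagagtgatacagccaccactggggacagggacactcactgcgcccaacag
F11: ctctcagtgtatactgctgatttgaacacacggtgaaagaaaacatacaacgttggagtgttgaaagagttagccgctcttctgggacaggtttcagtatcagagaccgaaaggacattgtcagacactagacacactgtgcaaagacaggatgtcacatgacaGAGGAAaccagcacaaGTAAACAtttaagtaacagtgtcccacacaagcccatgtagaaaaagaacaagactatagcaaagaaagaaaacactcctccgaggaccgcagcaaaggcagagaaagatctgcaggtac
Fgb: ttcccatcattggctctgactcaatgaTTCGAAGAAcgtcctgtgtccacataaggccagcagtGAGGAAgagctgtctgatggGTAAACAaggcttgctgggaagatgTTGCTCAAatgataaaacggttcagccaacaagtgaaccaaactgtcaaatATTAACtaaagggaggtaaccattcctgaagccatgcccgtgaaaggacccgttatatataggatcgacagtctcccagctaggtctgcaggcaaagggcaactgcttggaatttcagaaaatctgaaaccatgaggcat
C1qb: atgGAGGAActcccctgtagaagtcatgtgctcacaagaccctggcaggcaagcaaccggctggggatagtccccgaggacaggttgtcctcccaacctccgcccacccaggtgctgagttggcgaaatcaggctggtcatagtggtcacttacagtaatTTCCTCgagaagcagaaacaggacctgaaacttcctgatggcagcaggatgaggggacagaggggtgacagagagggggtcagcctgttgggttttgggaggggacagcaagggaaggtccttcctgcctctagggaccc

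The letters searched were GTTAAT for an HNF1 half-site, CAAAGTC for HNF4, TGTTTAC for FOXA, TTGCNNAA for C/EBP, GAGGAA for PU.1, TTCNNNGAA for STAT3 and TATAAA for a TATA box. The Fgb sequence held HNF1, FOXA, C/EBP, PU.1 and STAT3 matches, each apart from the others, the first 90 bases before the start. The F11 sequence held a FOXA match 70 bases and a PU.1 match 86 bases before the start. C1qb held PU.1 matches 247 and 90 bases before the start, and F5 held none of these letters. Sequences were found for 25 of the 36 factors. GTTAAT stood in 8 of the 25 (32.0%) and in 7.37% of all 27457 sequences of that length, TGTTTAC in 5 (20.0%) and in 3.76%, TTGCNNAA in 8 and in 10.5%, and GAGGAA in 8 and in 27.5%. The others were CAAAGTC in 1 of 25 and in 4.54% of all, TTCNNNGAA in 3 and in 8.68%, and TATAAA in 2 and in 14.3%. A match is a run of letters and was not tested for binding.

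The factors spanned a wide range of levels per transcript length. In 23 of the 36 the mean over the livers was at least 100 RPKM, and in 4 (Fgb, Fgg, Kng1 and Plg) at least 1000 RPKM. F3, Vwf, F8 and Cfd stayed below 10 RPKM. Fgb led with 1792 ± 120 RPKM in controls and 1708 ± 115 RPKM in EtOH livers (SD, n = 6 per group here and below). Together the 36 factors took 2.17 to 2.47% of all RPKM in control livers and 2.28 to 2.41% in EtOH livers.

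**Figure D1:**
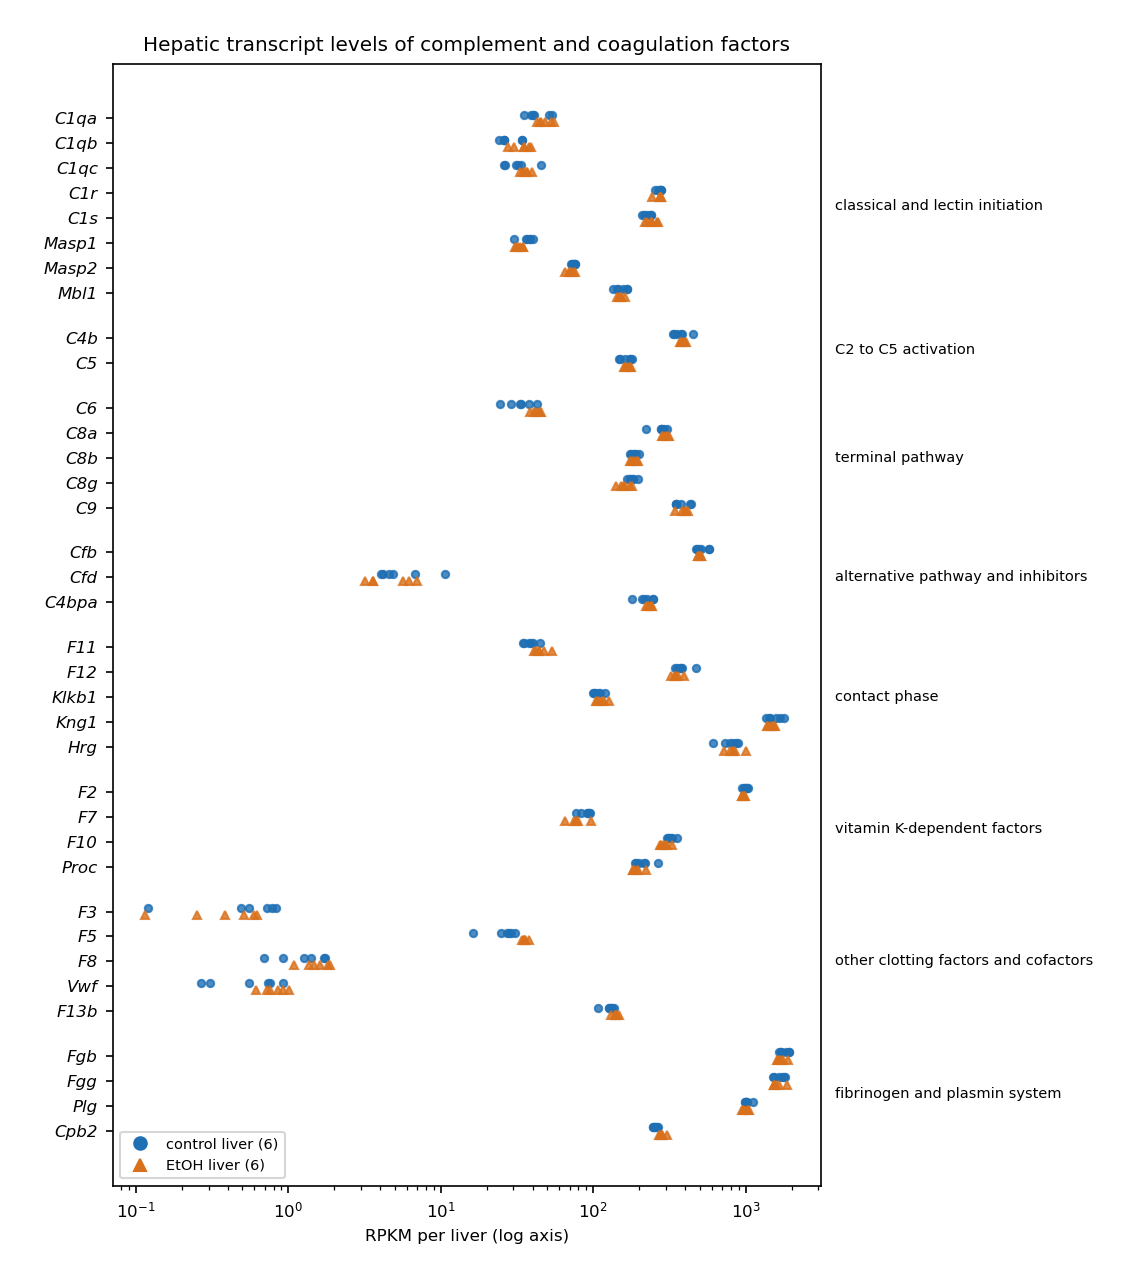
RPKM (log axis) of the 36 measured factors in each of 6 control livers (circles) and 6 EtOH livers (triangles), grouped by role. Fibrinogen, kininogen and plasminogen lie above 1000 RPKM on average, F3, Vwf, F8 and Cfd below 10 RPKM, and only F5 and Cpb2 show EtOH livers wholly above the controls.

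The classical and lectin starters were compared first. C1qa, C1qb and C1qc encode the chains of C1q, the part of C1 that binds antibody. C1qb ranged from 24.3 to 34.4 RPKM in control livers (median 26.0) and from 27.5 to 38.9 RPKM in EtOH livers (median 35.3). In 4 EtOH livers it stood above every control, and the groups overlapped through the other 2. Its log2 fold change was 0.42 (SE 0.11), short of the threshold at an adjusted p of 0.0598 in limma, and 0.27 as deposited.

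C1qa was 35.4 to 53.5 RPKM in controls (median 40.4) and 42.8 to 54.9 RPKM in EtOH livers (median 47.0), with 1 EtOH liver above all controls. C1qc was 26.0 to 45.2 RPKM in controls (median 31.7) and 33.2 to 39.5 RPKM in EtOH livers (median 35.8). The highest C1qa and C1qc values among controls both came from control 3. The log2 fold changes were 0.34 (SE 0.10) for C1qa and 0.33 (SE 0.10) for C1qc, with limma adjusted p of 0.117 and 0.13, and 0.16 and 0.17 as deposited. The chains lie side by side on chromosome 5 of the authors' table, C1qb to C1qc 3031 bases and C1qc to C1qa 2904 bases apart. The ratio of C1qa to C1qb within a liver was 1.52 ± 0.088 in controls and 1.43 ± 0.208 in EtOH livers (exact permutation p = 0.271, two-sided).

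C1r and C1s, the proteases of C1, are made by hepatocytes. C1r was 272 ± 8.79 RPKM in controls and 270 ± 14.2 RPKM in EtOH livers, a log2 fold change of 0.08 (SE 0.05) after normalization and -0.01 as deposited, with a limma adjusted p of 0.468. EtOH animal 1 was the lowest liver at 241 RPKM, and the other 11 lay between 255.7 and 279.3 RPKM. C1s stood at 227 ± 12.9 and 242 ± 18.9 RPKM, with 3 EtOH livers above all controls and a log2 fold change of 0.20 (adjusted p = 0.164). Of the lectin pathway, Mbl1, a mannose-binding lectin, was at 152 ± 12.6 and 152 ± 5.68 RPKM. Its log2 fold change was 0.16 after normalization and -0.0007 as deposited. Masp2, the protease that splits C4 and C2, was at 74.1 ± 1.89 and 70.9 ± 3.67 RPKM, a log2 fold change of 0.10 after normalization and -0.06 as deposited. Masp1, a further lectin pathway protease, was at 36.9 ± 3.49 and 32.6 ± 1.74 RPKM, a log2 fold change of -0.02 after normalization and -0.17 as deposited. A second listed Masp1 transcript amounted to 0.399 ± 0.079 of the first in controls and 0.529 ± 0.067 in EtOH livers (exact permutation p = 0.0173, adjusted 0.0865 over 5 ratios of transcripts of 1 gene). In the whole group 0 of 8 measured factors were called, with a median log2 fold change of 0.18.

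C1q was then set against the hepatocyte factors. The 29 measured factors made mainly by hepatocytes had a median log2 fold change of 0.14, with 20 above 0 and 9 below, and the C1q chains had a median of 0.34, all 3 above 0. As deposited the medians were -0.01 (13 above 0 and 16 below) and 0.17. The summed level of the hepatocyte factors was 11821 to 13388 RPKM in controls and 11983 to 12715 RPKM in EtOH livers, so the EtOH livers lay inside the control range. The sum of the C1q chains was 87.3 to 133 RPKM in controls (median 96.3) and 109 to 128 RPKM in EtOH livers (median 117). Per 1000 RPKM of hepatocyte factors, C1q amounted to 7.23 to 10.4 RPKM in controls (median 7.99) and 8.85 to 10.4 RPKM in EtOH livers (median 9.68). The 6 EtOH livers thus lay in the upper part of the control range, whose top was control 3 alone at 10.43 RPKM (next control 6 at 8.91 RPKM). Only EtOH 5, at 10.45 RPKM, lay above control 3.

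Macrophage markers were compared in the same livers. Of 12 fixed macrophage markers 9 were measured, all 9 lay above 0 in log2 fold change on both scales, and 3 were called higher: Vsig4, a complement receptor of resident liver macrophages, Clec4f, a lectin of Kupffer cells, and Cd163, a hemoglobin scavenger receptor. Marco, Adgre1 and Timd4 were not matched by name or were at 0. Vsig4 was 14.0 to 17.4 RPKM in controls (median 16.6) and 18.4 to 21.1 RPKM in EtOH livers (median 20.6), without overlap. Its log2 fold change was 0.46 (SE 0.06, limma adjusted p = 0.00342) and 0.31 as deposited (adjusted p = 0.0201). Clec4f was 66.4 ± 10.7 and 82.4 ± 6.06 RPKM (log2 fold change 0.48, adjusted p = 0.0246), and Cd163 was 6.19 ± 1.17 and 9.38 ± 1.93 RPKM (0.66, adjusted p = 0.0427), and as deposited neither was called (adjusted p = 0.0898 and 0.0608). Cd68, a macrophage lysosomal protein, was 10.9 ± 3.75 and 11.2 ± 0.996 RPKM. The markers summed to 165 to 230 RPKM in control livers and 220 to 254 RPKM in EtOH livers, a ratio of means of 1.18, beside 1.14 for the C1q sum. Whether the C1q difference follows the macrophage content was not tested, and in whole tissue more cells of a type cannot be told apart from more RNA per cell.

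**Figure D2:**
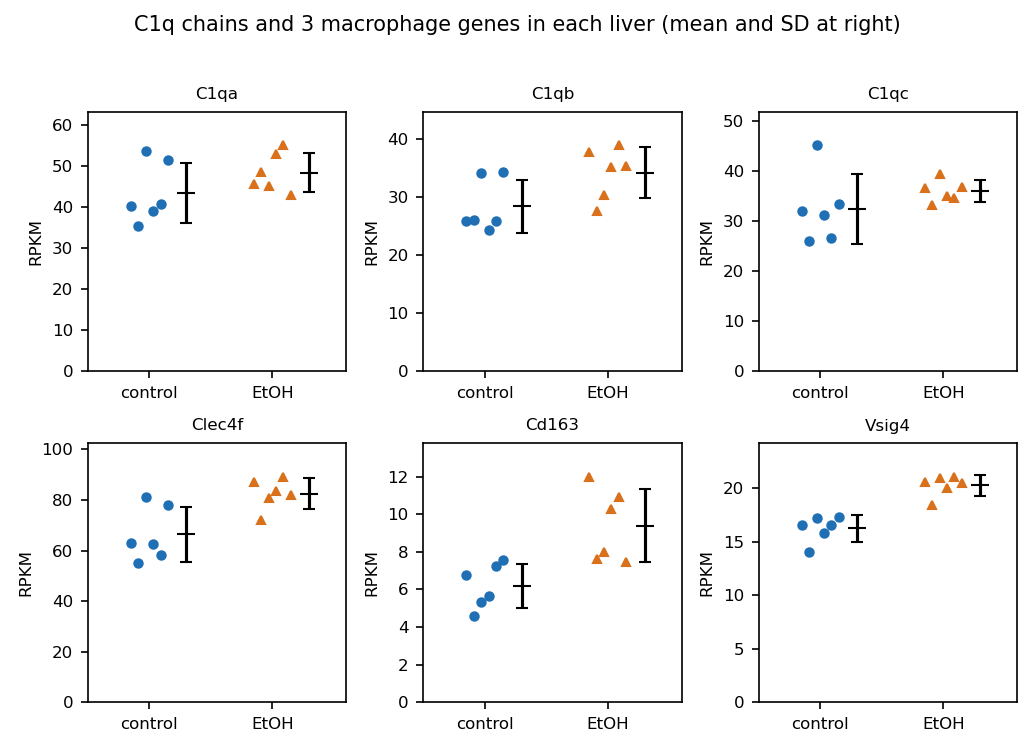
RPKM of the 3 C1q chains and of the 3 macrophage genes that were called, in each control liver (circles) and each EtOH liver (triangles), animals 1 to 6 from left to right, with the mean and SD at the right of each group. The C1q chains overlap between groups, whereas Vsig4 ranges from 14.0 to 17.4 RPKM in controls and from 18.4 to 21.1 RPKM in EtOH livers.

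Markers of other cells are given for the same reason. The 7 stellate cell markers all lay above 0 and summed to 24.6 to 34.5 RPKM in controls and 31.3 to 50.7 RPKM in EtOH livers. Of these 1 was called, Col3a1, a fibrillar collagen (log2 fold change 0.44, limma adjusted p = 0.0393). As deposited its log2 fold change was 0.28 (adjusted p = 0.104). Dcn, the matrix proteoglycan decorin, was 1.80 ± 0.823 RPKM in controls and 4.98 ± 2.78 RPKM in EtOH livers (log2 fold change 1.24, adjusted p = 0.0517), and as deposited it was the 1 stellate cell marker called (adjusted p = 0.0446). Of 9 sinusoidal endothelial markers only Lyve1 and Pecam1 were measured, with sums of 21.0 to 27.1 and 22.9 to 33.1 RPKM. Among 6 measured hepatocyte markers Cps1, the first enzyme of the urea cycle, rose from 586 ± 61.3 to 850 ± 103 RPKM (adjusted p = 0.0224). Of the other lists, 3 cholangiocyte, 3 platelet, 2 neutrophil and 2 erythrocyte markers were measured and 0 were called in each, and the 3 adipocyte markers were not matched or were at 0. Their part in the differences of the factors was not tested.

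In the central steps from C2 to C5 only 2 factors were measured and 0 were called. C4b, a C4 gene whose near-identical copy C4a is not analysed here so that reads of both cannot be separated with certainty, was 373 ± 43.6 RPKM in controls and 387 ± 12.8 RPKM in EtOH livers. Its controls ran from 336 to 453 RPKM (median 364) and the EtOH livers from 373 to 405 RPKM (median 385), within the control range. C5, which starts the pore, was 147 to 178 RPKM in controls (median 167) and 159 to 178 RPKM in EtOH livers (median 170). The log2 fold changes were 0.17 (SE 0.08) for C4b and 0.19 (SE 0.08) for C5, with limma adjusted p of 0.308 and 0.298, and 0.06 and 0.05 as deposited.

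In the terminal pathway 0 of 5 factors were called. C6, which joins C5b as the pore assembles, was 24.6 to 42.7 RPKM in control livers (median 33.6) and 38.2 to 45.7 RPKM in EtOH livers (median 42.5). In 3 EtOH livers C6 was above every control, and control 1 reached into the EtOH range. Its log2 fold change of 0.51 (SE 0.12) was the largest among the complement factors, just short of the threshold in limma (adjusted p = 0.0528), and 0.36 as deposited. C9, the pore-forming component and the most abundant of the group, was 350 to 439 RPKM in controls (median 364) and 342 to 417 RPKM in EtOH livers (median 401), overlapping throughout. The log2 fold change of C9 was 0.14 (SE 0.09, limma adjusted p = 0.503) and 0.04 as deposited.

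C8 is built of an alpha, a beta and a gamma chain, from C8a, C8b and C8g. C8a was 276 ± 28.5 RPKM in controls and 299 ± 12.9 RPKM in EtOH livers, C8b 186 ± 9.11 and 185 ± 9.47 RPKM, and C8g 179.5 ± 10.1 and 161 ± 14.5 RPKM. After normalization the log2 fold changes were 0.22, 0.15 and -0.02, and as deposited 0.12, -0.01 and -0.16. A ratio within a liver is free of the scaling between livers. That of C8a to C8g was 1.12 to 1.68 in controls and 1.73 to 2.01 in EtOH livers, without overlap. Its log2 difference was 0.28 (exact permutation test, two-sided p = 0.00216, the smallest that 6 against 6 livers allow, 0.00864 adjusted over 8 subunit ratios), and 0.19 without control 3, which had the lowest ratio. C8a to C8b was 1.48 ± 0.128 in controls and 1.62 ± 0.067 in EtOH livers (exact permutation p = 0.039, adjusted 0.104). Ratios without overlap were common at these levels: among all 173166 pairs of transcripts with a mean of at least 100 RPKM, 14.5% did not overlap. Of the 8 subunit ratios 2 did not overlap, but those 8 include ratios of C1q chains, which lay below 100 RPKM.

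**Figure D3:**
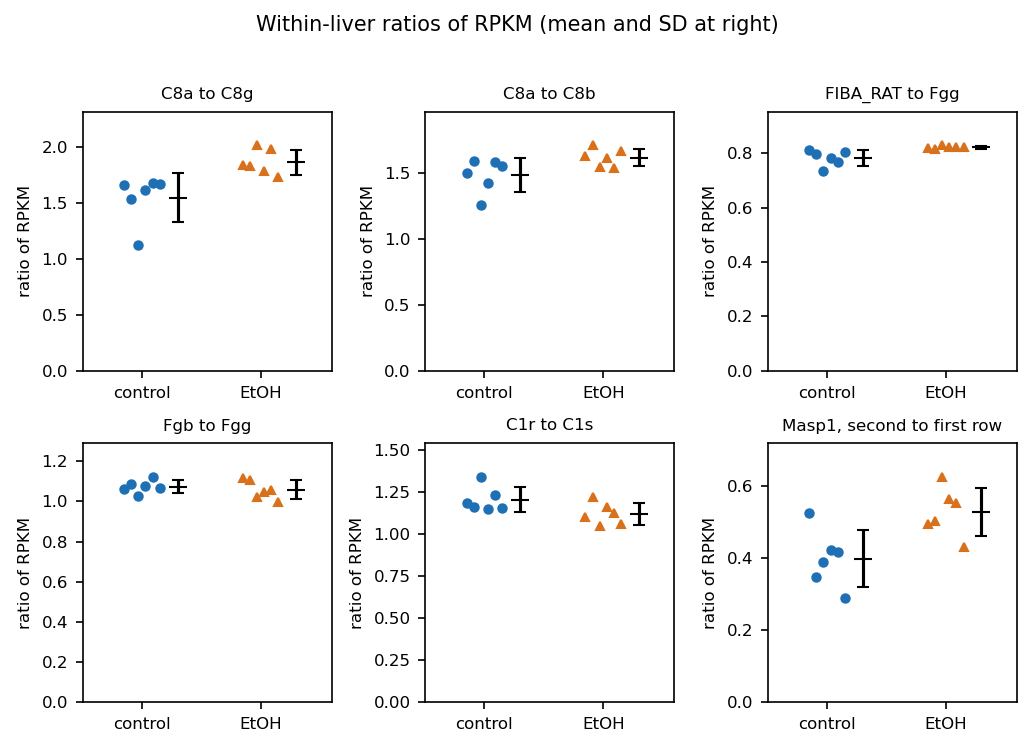
Ratios of RPKM within each control liver (circles) and each EtOH liver (triangles), animals 1 to 6 from left to right, for subunits of C8, fibrinogen and C1 and for 2 listed transcripts of Masp1, with the mean and SD at the right of each group. C8a to C8g and FIBA_RAT to Fgg separate the groups, at 1.12 to 1.68 against 1.73 to 2.01 and at 0.735 to 0.811 against 0.814 to 0.829.

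Among 3 measured factors of the alternative pathway and its inhibitors 0 were called. Cfb, factor B, was 475 to 577 RPKM in controls (median 502) and 488 to 509 RPKM in EtOH livers (median 505). All EtOH livers fell inside the control range. Its log2 fold change was -0.002 (SE 0.06, limma adjusted p = 0.992), -0.05 as deposited and 0.05 after median scaling. Cfd, factor D, which splits factor B and is mainly a product of fat cells, was 4.03 to 10.7 RPKM in controls and 3.18 to 6.95 RPKM in EtOH livers, with 10 to 30 reads per liver. C4bpa, the alpha chain of the inhibitor C4b-binding protein, was 221 ± 25.3 and 234 ± 8.12 RPKM (median 221 and 235, range 180 to 246 and 223 to 242), a log2 fold change of 0.21 (SE 0.10, adjusted p = 0.373) and 0.09 as deposited.

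In the contact phase 1 of 5 factors was called, F11. Listed on chromosome 16 from 50279169 to 50298903 in the authors' table (genome build: not given in the sources used here), it encodes factor XI, the protease through which contact activation reaches the clotting chain. F11 was 34.7 to 44.7 RPKM in control livers (median 38.4) and 41.0 to 53.9 RPKM in EtOH livers (median 44.1). In 2 EtOH livers F11 exceeded every control, and control 5 lay within the EtOH range. The log2 fold change was 0.39 (SE 0.08, limma adjusted p = 0.0316), and 0.23 as deposited, where it was not called (adjusted p = 0.135). It was called in 5 of the 12 fits that left out 1 liver, and lost the call without control 2, 3 or 4 or without EtOH 2, 3, 4 or 6 (adjusted p up to 0.0736).

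Klkb1, plasma prekallikrein, lies 6891 bases from F11 on chromosome 16 of the authors' table. It was 107 ± 7.70 RPKM in controls and 113 ± 7.87 RPKM in EtOH livers, a log2 fold change of 0.23 (adjusted p = 0.112) and 0.08 as deposited. F12, factor XII, which starts the contact phase, was 385 ± 46.3 and 353 ± 23.8 RPKM, with control 3 highest at 475 RPKM. The log2 fold change of F12 was -0.01 after normalization and -0.12 as deposited. Kng1, the kininogen that carries prekallikrein and factor XI and may share reads with a near-identical copy, was 1358 to 1780 RPKM in controls (median 1512) and 1383 to 1560 RPKM in EtOH livers (median 1469). The EtOH livers fell inside the control range, and the log2 fold change was 0.02 (SE 0.08, adjusted p = 0.928) after normalization and -0.07 as deposited. Hrg, histidine-rich glycoprotein, was 789 ± 103 and 839 ± 92.8 RPKM.

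The vitamin K-dependent factors, which need gamma-carboxylation to bind calcium, stayed close to 0 after normalization: 0 of 4 measured factors were called, and the log2 fold changes ran from -0.04 to 0.02. As deposited, all 4 lay below 0, from -0.19 to -0.04. F2, prothrombin, was 948 to 1038 RPKM in controls (median 993) and 947 to 998 RPKM in EtOH livers (median 972), a log2 fold change of -0.01 (SE 0.05, limma adjusted p = 0.953), and 0.05 after median scaling. F10, factor X, was 303 to 357 RPKM in controls (median 320) and 275 to 329 RPKM in EtOH livers (median 291). In 4 EtOH livers F10 was below every control, and its log2 fold change was -0.04 (SE 0.04, adjusted p = 0.651) after normalization and -0.13 as deposited. F7, factor VII, whose gene lies 2134 bases from F10 in the authors' table, was 88.9 ± 7.08 and 78.4 ± 10.1 RPKM, and Proc, protein C, an anticoagulant protease, was 213 ± 28.7 and 194 ± 14.97 RPKM.

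Among the 5 other clotting factors 1 was called, F5, which had the largest log2 fold change of all 36. The gene is listed on chromosome 13 from 79923988 to 79997285 in the authors' table and encodes factor V, the cofactor with which factor Xa activates prothrombin. In controls 1 to 6 F5 was at 28.9, 27.4, 16.3, 24.8, 28.2 and 30.6 RPKM, and in EtOH animals 1 to 6 at 37.9, 35.5, 35.3, 35.4, 34.3 and 35.8 RPKM. All 6 EtOH livers were above the highest control, and control 3 stood well below the other controls. F5 and Cpb2 were the 2 factors without overlap, both higher in EtOH livers, where 0.677% of all transcripts were higher and 2.43% lower without overlap (1.08% higher among those with a mean of at least 1 RPKM). The log2 fold change of F5 was 0.62 (SE 0.14, limma adjusted p = 0.0393), and 0.47 as deposited (adjusted p = 0.0539). Without control 3 it was 0.48 with an adjusted p of 0.00629. It was called in 3 of the 12 fits that left out 1 liver, and lost the call without control 2, 4 or 5 or without any single EtOH liver (adjusted p up to 0.0862).

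F13b, which carries factor XIII, the enzyme that cross-links fibrin, was 107 to 137 RPKM in controls (median 130) and 131 to 147 RPKM in EtOH livers (median 141). In 5 of the 6 EtOH livers F13b was above every control. Its log2 fold change was 0.29 (SE 0.08, limma adjusted p = 0.0968) and 0.14 as deposited. The remaining 3 factors were scarce. F8, factor VIII, was 1.29 ± 0.426 and 1.55 ± 0.297 RPKM on 22 to 71 reads per liver, Vwf, von Willebrand factor, 0.592 ± 0.264 and 0.815 ± 0.145 RPKM on 9 to 49 reads, and F3, tissue factor, 0.584 ± 0.263 and 0.415 ± 0.203 RPKM on 1 to 5 reads. A difference in F3 was not detectable at this depth.

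**Figure D4:**
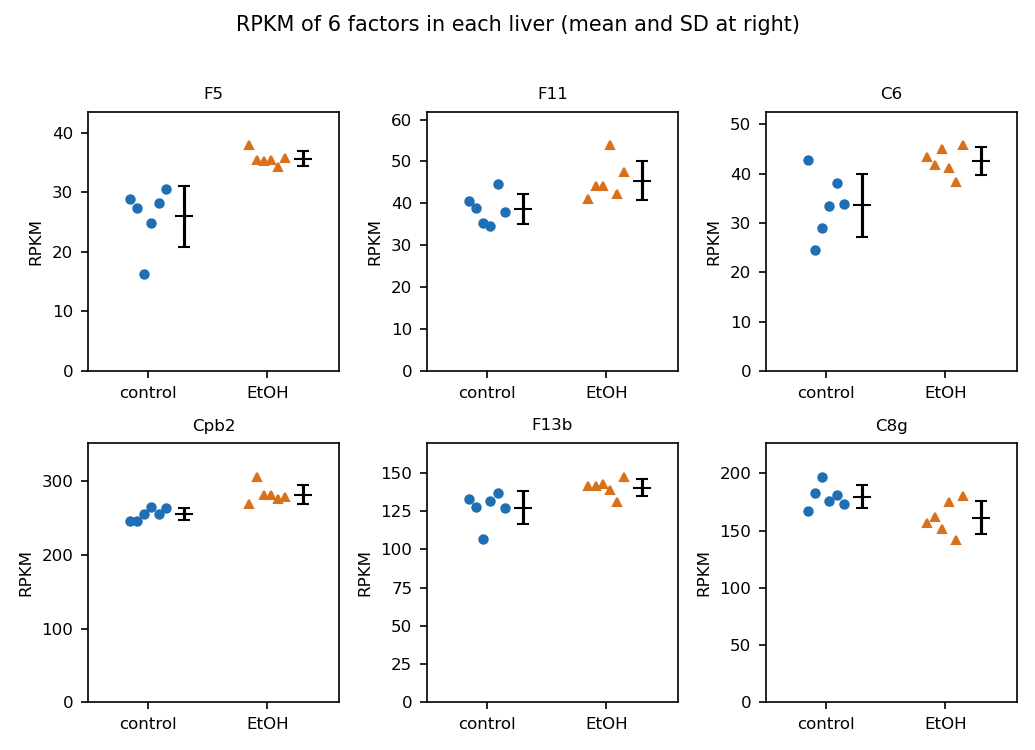
RPKM of F5, F11, C6, Cpb2, F13b and C8g in each control liver (circles) and each EtOH liver (triangles), animals 1 to 6 from left to right, with the mean and SD at the right of each group. F5 and Cpb2 do not overlap between groups, and control 3 is the lowest liver for F5 at 16.3 RPKM and for F13b at 107 RPKM.

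In the fibrinogen and plasmin system 0 of 4 measured factors were called. The fibrinogen chains, the most abundant products of the clotting system, were measured at nearly equal levels in both groups. Fgb, the beta chain, was 1662 to 1926 RPKM in controls (median 1771) and 1598 to 1910 RPKM in EtOH livers (median 1681). In 3 EtOH livers Fgb was below every control, and its log2 fold change was -0.02 (SE 0.06, limma adjusted p = 0.909), -0.07 as deposited and 0.02 after median scaling. Fgg, the gamma chain, was 1671 ± 128 and 1616 ± 132 RPKM. A transcript listed under FIBA_RAT, the protein database name of the rat fibrinogen alpha chain, lay outside the rule for names and stood at 1309 ± 124 and 1328 ± 114 RPKM (log2 fold change 0.06, adjusted p = 0.733). Its ratio to Fgg within a liver was 0.782 ± 0.028 in controls and 0.822 ± 0.00487 in EtOH livers, a log2 difference of 0.07 without overlap (exact permutation p = 0.00216, adjusted 0.00864), and 0.05 without control 3. The ratio of Fgb to Fgg was 1.07 ± 0.031 and 1.06 ± 0.046 (exact permutation p = 0.504).

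Plg, plasminogen, the precursor of the protease that dissolves fibrin, was 1021 ± 45.1 RPKM in controls and 995 ± 45.2 RPKM in EtOH livers. Cpb2, a carboxypeptidase activated by thrombin that slows the lysis of fibrin (listed on chromosome 15 from 56104920 to 56154319), was 246 to 265 RPKM in controls (median 255) and 269 to 306 RPKM in EtOH livers (median 279). All 6 EtOH livers were above all 6 controls, with EtOH animal 2 the highest. The log2 fold change was 0.25 (SE 0.07) after normalization, not called in limma (adjusted p = 0.0733), and 0.14 as deposited (adjusted p = 0.0991). After median scaling it was 0.23 with an adjusted p of 0.0495.

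**Figure D5:**
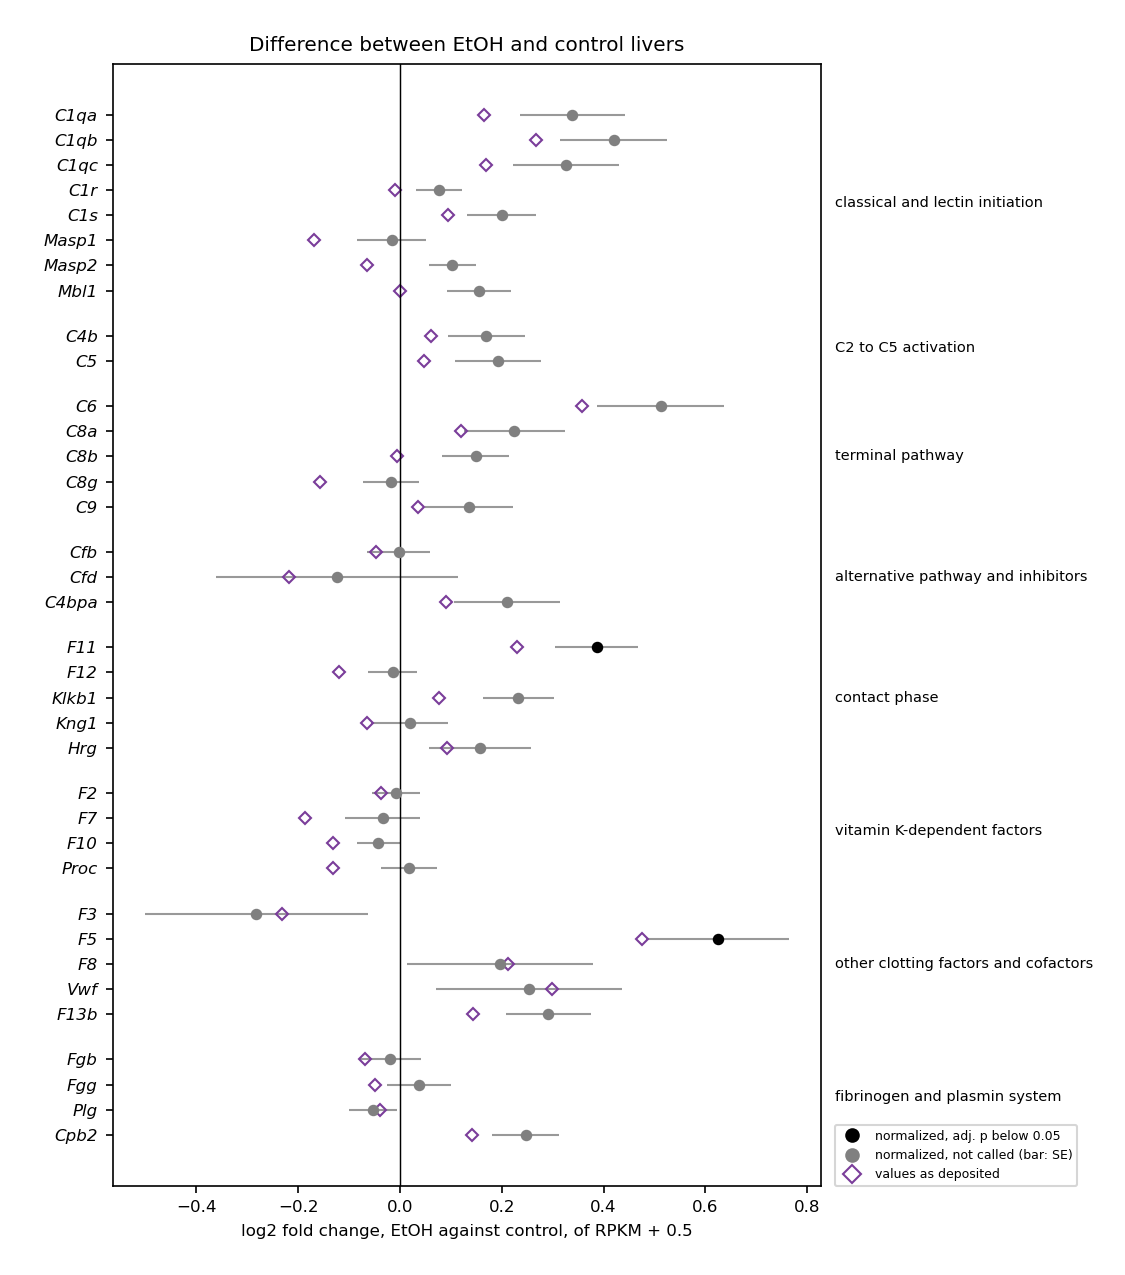
Log2 fold change (EtOH against control, of RPKM + 0.5) of the 36 factors, grouped by role, after quantile normalization (circles with SE, black where the adjusted p was below 0.05) and on the values as deposited (open diamonds). F5 at 0.62 and F11 at 0.39 are black, and the diamonds lie to the left of most circles, with 18 of 36 below 0.

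The other genes of both cascades were taken from a list of 52 inhibitors, receptors and helpers, of which 40 were measured. Of these 1 was called higher, Vsig4, and 1 lower, and their median log2 fold change was 0.02. Vsig4 was the 1 called among 17 complement regulators and receptors, with the values given above. Serping1, the inhibitor of C1r and C1s, was 305 ± 23.1 and 312 ± 17.7 RPKM.

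Of 23 coagulation regulators, Serpina5, protein C inhibitor, was called lower, on 0.0998 to 0.485 RPKM in controls (median 0.232) and 0 to 0.105 RPKM in EtOH livers (median 0). The groups overlapped slightly, and these values rest on 12 reads in all controls and 2 in all EtOH livers. Its log2 fold change was -0.53 (SE 0.12, adjusted p = 0.0426), on a scale where the pseudocount exceeds the values, and it was called in 1 of the 12 fits that left out 1 liver (without control 6). Serpinc1, antithrombin, was 1565 ± 102 and 1449 ± 37.0 RPKM, with a log2 fold change of -0.05 (adjusted p = 0.649). Ggcx and Vkorc1, the carboxylase and the reductase of the vitamin K cycle, were 24.9 ± 2.42 and 22.9 ± 1.11 RPKM, and 64.9 ± 6.33 and 56.9 ± 4.08 RPKM, with log2 fold changes of 0.04 and -0.02.

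The spread within groups was described for the 32 factors with a mean of at least 10 RPKM. In 20 of them (62.5%) the coefficient of variation was smaller among EtOH livers than among controls, as it was for 65.0% of all 3817 transcripts at that level. Among the 6 controls, control 6 was highest for 14 of the 36 factors and control 3 for 12, and control 2 was lowest for 11 and control 3 for 7. Without control 3 the share was 53.1% of the factors and 51.3% of the transcripts.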

How the data were processed

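RNA sequencing of 12 livers was analysed from the deposited values. The authors isolated poly(A) RNA, sequenced 12 barcoded libraries in 101-nucleotide paired ends in 1 lane and mapped them with CLCbio Genomics Workbench 4.9 (submitters' processing notes). They deposited RPKM for 34391 transcripts, and beside it columns of their own group comparison (fold changes, a statistic, p-values and FDR), which were left out. For the build and any strand setting: not given in the sources used here.

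Of these transcripts 21718 were above 0 in at least 1 liver and entered limma 3.58.1 (R 4.3.3) on quantile-normalized log2(RPKM + 0.5) with a mean-variance trend, Benjamini-Hochberg adjustment over all of them, two-sided, threshold 0.05. Whole reads, within 0.01 read, were recovered for 21718 of 21718 transcripts and entered limma voom as an alternative. They are the smallest whole numbers that fit a transcript, so they may be too low by a factor common to all livers. A transcript above 0 in only 1 liver always fits, so the share recovered is no check of the method. Ratios were compared by exact permutation (scipy 1.17.1). Fold changes understate the change of low transcripts because of the pseudocount. Counts of reads cover counting error only. The fit was tested on simulated data.

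Members, role groups, markers and regulators were chosen with earlier results of these data known, so lists are described without tests. Named with full values were called members, members without overlap, the C1q chains and, per role group, the most abundant member and that with the smallest p. Of the regulators, those called and the smallest p in each list were named. Animal numbers did not pair the livers (correlations of deviations -0.0669 to 0.0322).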

Additional observations from a re-analysis of the deposited data

Results flagged for a closer look

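Some single livers stood apart from the other 5 of their group, by a gap wider than Dixon's 95% limit for a group of that size. This held in 9 of 76 groups checked. Chance gives about 1 in 20 for a single group, but these groups share the same livers and are not independent. That rate therefore cannot tell whether 9 is an excess. Control 3 accounted for 4 of the 9: it was lowest for C8a at 221 RPKM (next 278) and for F13b at 107 RPKM (next 127), and highest for F12 at 475 RPKM (next 382) and for Plg at 1110 RPKM (next 1018).

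Among the EtOH livers, EtOH 1 was lowest for C1r at 241 RPKM (next 273), and EtOH 2 was lowest for Vsig4 at 18.4 RPKM (next 20.1) and highest for Cpb2 at 306 RPKM (next 281). EtOH 3 was highest for Fgg at 1868 RPKM (next 1648), and EtOH 6, the animal collected at 39 weeks, was highest for Proc at 221 RPKM (next 196). The cause was not tested.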

How the results depend on the processing

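Over all transcripts 526 calls were made, and 113 with the animal number as a replicate block, 322 with the pooled test on square-root values, 860 at a mean RPKM of at least 1, and 212 to 656 when single livers were left out. Of the 36 factors 2 were called, 0 without normalization, without a trend, with the pooled test or with the block, 1 with limma voom, 4 at a mean RPKM of at least 0.1, 5 at 1, and 0 to 7 when single livers were left out (7 without control 6; 0 without control 2 or 4 or EtOH 2, 3, 4 or 6). With the block the adjusted p was 0.1 for F5 and 0.136 for F11. Of the regulators 2 were called, 1 with a pseudocount of 1, without a trend or with the block, and 1 to 4 without single livers. Serpina5 was called in 1 of 12 such fits and Vsig4 in 12. The median of the factors was 0.0174 without normalization, 0.11 after median scaling, 0.028 with voom and 0.11 to 0.18 without single livers. That of the hepatocyte factors was -0.0064, 0.0857, 0.0109 and 0.0824 to 0.17, and that of C1q 0.17 to 0.34 over the settings and 0.28 to 0.40 without single livers. Square-root fits give no log2 median.

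Among the factors named with full values, signs turned without normalization for C1r (-0.009) and Kng1 (-0.0655, and -0.0606 with voom). After median scaling they turned for Cfb (0.0462), F2 (0.0548) and Fgb (0.0229). Of the other factors, Masp2 (-0.0637), Mbl1 (-0.0007), C8b (-0.0064), Proc (-0.1306) and Fgg (-0.0483) turned without normalization. Plg (0.054) and Proc (-0.0385) turned after median scaling. Without single livers Cfb ran from -0.0378 to 0.0466, F2 from -0.0292 to 0.0176, Fgb from -0.0495 to 0.0111 and Kng1 from -0.0177 to 0.0633. Of 459 values of single genes under alternatives, 383 kept direction and call, 42 lost and 14 gained a call, and 20 turned sign. The cause was not tested. At an RPKM above 1, 35 factors were measured instead of 36. Depth limits F3, Vwf and Serpina5.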
